A study of Mus musculus with 8 samples.

Results

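Interleukin-6 family signalling was followed in the mouse aorta through 10 genes, found by their gene symbols among the 21859 genes in the count files. They are the ligand genes Il6, Lif, Osm and Il11, the receptor genes Il6ra, Il6st, Lifr and Osmr, and the intracellular genes Stat3 and Socs3. Aortas of male C57BL/6 mice, 40 weeks old and kept on chow, were sequenced from 4 ApoE-/- and 4 WT animals, with 1 library per mouse. ApoE-/- mice lack apolipoprotein E in the whole body from birth and accumulate lipoprotein remnants, so the deletion is not limited to a cell type of the vessel. WT mice served as the only controls, and whether the genotypes were littermates is not given in the sources used here. The comparison asks how the aortic transcripts of the family differed between atherosclerosis-prone and control mice.

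Cytokines of the IL-6 family signal through receptor complexes that share the chain encoded by Il6st. Ligand binding activates Janus kinases, which phosphorylate the transcription factor STAT3, and STAT3 then induces Socs3, whose product blocks the same receptor complexes as negative feedback. In vessels, IL-6 is known as a product of macrophages, smooth muscle cells, fibroblasts and endothelial cells, and as a driver of acute-phase protein production by the liver.

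Il6 rose in ApoE-/- aortas by a log2 value of 4.87 (SE 0.71, edgeR adjusted p = 0.0396), from a level close to the detection limit in WT aortas. Socs3 had the next smallest p, with a log2 difference of 1.38 (SE 0.26), but its edgeR adjusted p of 0.0635 did not pass the threshold of 0.05. Lif, Osm and Stat3 had higher values in every ApoE-/- mouse than in any WT mouse, without passing the test. The receptor genes Il6ra and Il6st differed by 0.02 and −0.01 on the log2 scale, Lifr by −0.25 and Osmr by 0.59, and none of them passed the test with all 8 mice. The library of ApoE-/- replicate 1 stood apart from the others. Without it edgeR called 593 of 15147 genes (3.91%), among them Il6, Socs3 and Osmr. Without each of the other 7 mice edgeR called 0 to 17 of all genes and 0 of the family genes it tested, Il6 included (adjusted p 0.0585 to 0.169), and in 3 of these 7 fits the deleted gene Apoe was not called either. The summed macrophage markers and the summed neutrophil markers were also higher in every ApoE-/- aorta than in any WT aorta, and in whole aortas more cells of a type and more RNA per cell, or fewer and less, cannot be told apart.

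The promoters of Il6 and Socs3 are shown because these genes had the smallest p-values of the 10. The windows reach from 250 bases before to 50 bases after the start in RefSeq (GRCm38.p6), and the strand of the gene is printed 5′ to 3′. In the Il6 window (chr5:30012864-30013163, plus strand) the capitals mark an AP-1 motif of the letters TGANTCA, whose first base lay 249 bases before the start, and a kappaB motif, the binding motif of NF-kB, whose first base lay 44 bases before the start. In the Socs3 window (chr11:117969317-117969616, minus strand) the capitals mark a STAT motif of the letters TTCNNNGAA, whose first base lay 154 bases before the start.
Il6 promoter: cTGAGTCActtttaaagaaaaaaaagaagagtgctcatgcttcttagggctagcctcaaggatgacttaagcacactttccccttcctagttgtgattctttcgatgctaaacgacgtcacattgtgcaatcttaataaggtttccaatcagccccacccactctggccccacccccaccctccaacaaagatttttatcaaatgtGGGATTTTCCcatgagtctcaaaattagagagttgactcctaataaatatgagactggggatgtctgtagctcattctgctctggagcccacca
Socs3 promoter: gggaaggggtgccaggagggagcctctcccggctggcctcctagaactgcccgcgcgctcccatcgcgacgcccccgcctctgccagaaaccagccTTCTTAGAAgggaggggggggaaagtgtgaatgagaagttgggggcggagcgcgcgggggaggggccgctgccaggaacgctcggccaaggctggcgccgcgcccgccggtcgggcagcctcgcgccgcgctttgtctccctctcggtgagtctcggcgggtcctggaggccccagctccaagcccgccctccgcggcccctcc

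Both strands were searched for these motifs and for the CRE motif TGACGTCA, and no matches of different motifs overlapped. The kappaB motif was found in 4.51% of the 32851 RefSeq promoter windows, TGANTCA in 7.81%, TTCNNNGAA in 8.3% and TGACGTCA in 1.79%. Windows were present for 9 of the 10 genes, all except Osm, and numbered 11, since Il11 and Lifr have more than 1 start. TGANTCA was also found for Lif, Osmr and Il11, in Il11 at only 1 of its starts (chr7:4778092-4778391), and began 228 bases before the start in Lif, 98 before in Il11 and 3 after in Osmr. These letters were not in the windows of Il6ra, Il6st, Lifr and Stat3, for any of the 4 motifs. A match describes the sequence and was not tested for binding.

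Between 23240995 and 23940156 read pairs were counted on genes in the ApoE-/- libraries and between 18375898 and 21664598 in the WT libraries. Pairs in entries that name no gene made up 64.4% to 67.7% in ApoE-/- and 69.8% to 72.1% in WT libraries, without overlap, and the part of this in the differences was not tested. Levels are given as CPM, the counts scaled to a common library size, after TMM scaling for library composition. Apoe, the deleted gene, had 14.7 to 36.3 CPM in ApoE-/- and 536 to 857 CPM in WT aortas. Of the 15077 genes tested with edgeR, 70 had an adjusted p under 0.05. ApoE-/- replicate 1 stood apart in composition. Its 5 smooth muscle markers summed to 4558 CPM, against 10130 to 19100 CPM in WT aortas and 11560 to 18750 CPM in the other ApoE-/- aortas. Its 5 nerve markers summed to 2676 CPM, against 166 to 594 CPM in WT aortas and 30.9, 205 and 55.95 CPM in ApoE-/- replicates 2 to 4, of which replicates 2 and 4 lay below the WT range. All 5 smooth muscle markers were detected in every library, which a tissue with vessels other than the aorta would also show.

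Il6 encodes the founding cytokine of the family (ENSMUSG00000025746.11, chr5:30013114-30019981 in GRCm38 with the GENCODE annotation, as for all genes here). ApoE-/- replicates 1 to 4 had 6.58, 3.10, 5.66 and 3.52 CPM of Il6, from 162, 71, 130 and 81 read pairs. WT replicates 1 to 4 had 0.275, 0.281, 0.0554 and 0 CPM, from 6, 6, 1 and 0 read pairs. Every ApoE-/- aorta was above every WT aorta. The mean was 4.71 ± 1.67 CPM in ApoE-/- and 0.153 ± 0.146 CPM in WT mice (SD, n = 4). Summed over the mice, 444 read pairs faced 13, and the ratio after scaling was 30.0 with a 95% interval of 17.4 to 56.8 that covers counting error only. The 95% interval of the log2 fold change ran from 3.23 to 6.51. By p-value Il6 ranked 45 among all genes tested with edgeR. DESeq2 gave an adjusted p of 6.72e-13. Leaving out 1 mouse at a time kept the log2 fold change between 4.47 and 5.31. The call remained only without ApoE-/- replicate 1, with an edgeR adjusted p of 0.0105, and was lost without each of the other 7 mice, where the adjusted p rose as far as 0.169.

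Lif encodes leukaemia inhibitory factor (ENSMUSG00000034394.14, chr11:4257557-4272514), a cytokine that binds Lifr together with Il6st. Its level was 2.27, 2.27, 2.96 and 2.43 CPM in ApoE-/- replicates 1 to 4, and 1.88, 0.983, 1.33 and 1.68 CPM in WT replicates 1 to 4. The lowest ApoE-/- value lay above the highest WT value, and the spread was 13.2% of the mean in ApoE-/- and 26.9% in WT mice. The log2 fold change was 0.76 (SE 0.25, 95% interval 0.19 to 1.32, edgeR adjusted p = 0.248). Osm encodes oncostatin M, made mainly by leukocytes, and lies 16.5 kb from Lif (ENSMUSG00000058755.3, chr11:4236420-4241026). Its counts were 13, 13, 9 and 24 read pairs in ApoE-/- and 7, 4, 1 and 2 in WT aortas, too few for the low-count filter. In CPM the ApoE-/- aortas ranged from 0.392 to 1.04 and the WT aortas from 0.0554 to 0.321, without overlap. Fitted without the filter, Osm differed by a log2 value of 1.87 (SE 0.54, 95% interval 0.64 to 3.11, edgeR adjusted p = 0.208). The ratio of its summed counts was 3.70, with a counting interval of 2.04 to 7.18.

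Il11 encodes interleukin-11, a ligand of Il6st known from fibroblasts (ENSMUSG00000004371.15, chr7:4772373-4782859). It was counted 8, 10, 15 and 9 times in ApoE-/- and 6, 10, 3 and 4 times in WT aortas, and did not pass the low-count filter. WT replicate 2, at 0.468 CPM, was above 3 of the 4 ApoE-/- aortas, which ranged from 0.325 to 0.653 CPM, so the groups overlapped. Without the filter the log2 fold change was 0.69 (SE 0.43, 95% interval −0.28 to 1.65, edgeR adjusted p = 0.701). A difference in Il11 was not detected with these counts.

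**Figure D1:**
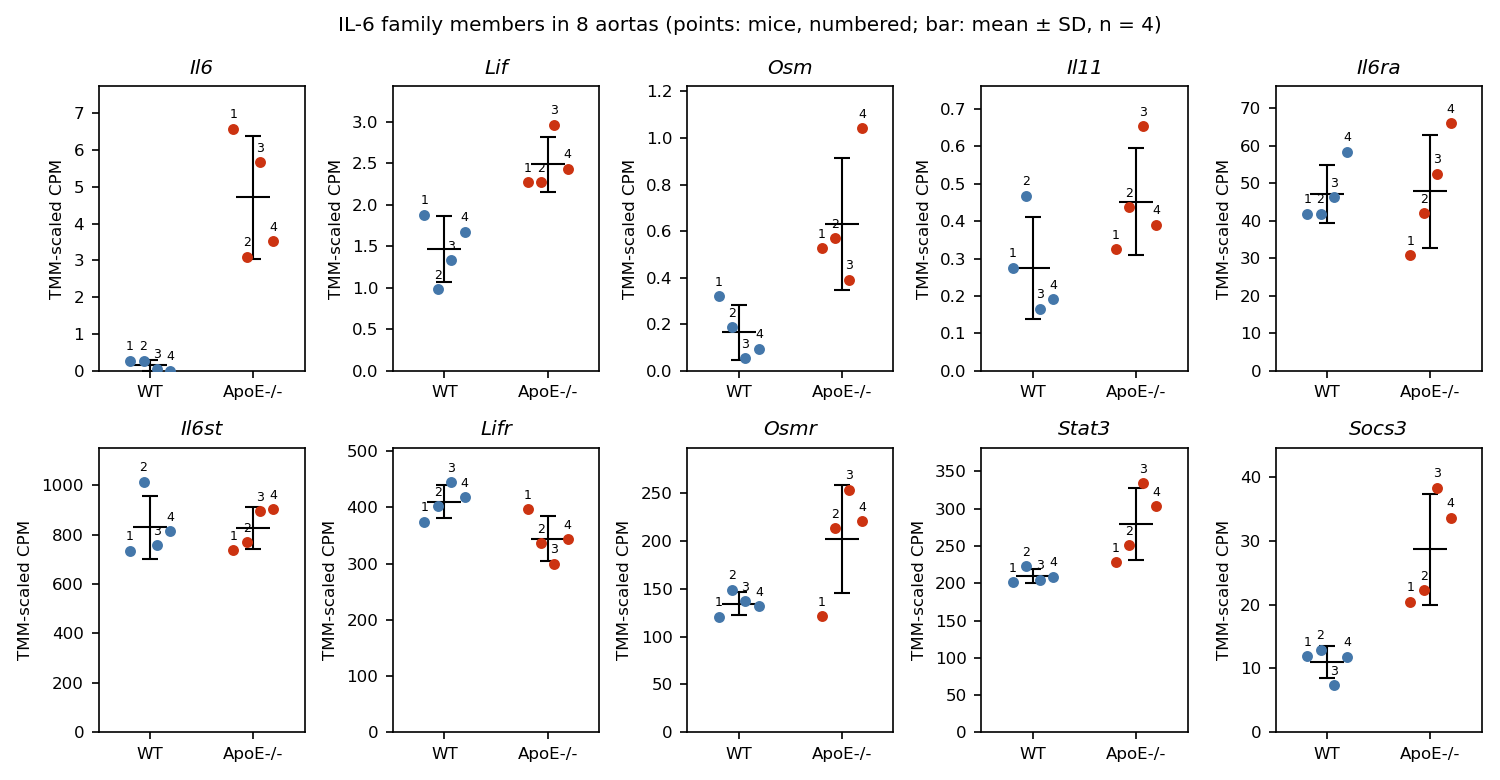
Levels of the 10 genes in each aorta, as TMM-scaled CPM on linear axes that start at 0. Points are mice, numbered by replicate, and bars give the mean ± SD (n = 4). Il6, Lif, Osm, Stat3 and Socs3 do not overlap between genotypes, and ApoE-/- replicate 1 is the lowest ApoE-/- mouse for Osmr, Stat3 and Socs3 but the highest for Il6.

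Il6st encodes the shared signalling chain of the family (ENSMUSG00000021756.12, chr13:112464070-112510086). Its level was 736, 769, 894 and 902 CPM in ApoE-/- replicates 1 to 4, and 734, 1013, 757 and 813 CPM in WT replicates 1 to 4. Both the highest and the lowest aorta were WT. The 95% interval of its log2 fold change reached from −0.39 to 0.38 (edgeR adjusted p = 0.997). Il6ra encodes the chain that binds IL-6 itself (ENSMUSG00000027947.11, chr3:89864059-89913196). It had 30.8, 42.0, 52.5 and 66.0 CPM in ApoE-/- and 41.9, 41.8, 46.2 and 58.4 CPM in WT aortas. The ApoE-/- values enclosed the whole WT range. Its log2 fold change had a 95% interval of −0.51 to 0.56 (edgeR adjusted p = 0.985).

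Lifr and Osmr encode the chains that pair with Il6st for LIF and oncostatin M, and lie 215.6 kb apart on chromosome 15. Lifr (ENSMUSG00000054263.12, chr15:7090614-7197489) had 396, 337, 300 and 344 CPM in ApoE-/- and 374, 402, 445 and 418 CPM in WT aortas. Only ApoE-/- replicate 1 lay within the WT range, and the other 3 were below it. The log2 fold change was −0.25 (SE 0.13, 95% interval −0.56 to 0.05, edgeR adjusted p = 0.560). Osmr (ENSMUSG00000022146.12, chr15:6813577-6874969) had 121, 213, 253 and 220.1 CPM in ApoE-/- and 120.5, 149, 137 and 132 CPM in WT aortas. Here too only ApoE-/- replicate 1 lay within the WT range, and the other 3 were above it. The log2 fold change was 0.59 (SE 0.22, 95% interval 0.09 to 1.08, edgeR adjusted p = 0.320). Without ApoE-/- replicate 1 it was 0.77 (SE 0.11, 95% interval 0.51 to 1.03, edgeR adjusted p = 0.0132) and passed the threshold.

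Stat3 encodes the transcription factor of the pathway (ENSMUSG00000004040.16, chr11:100885098-100939540), and Stat5a overlaps it on the opposite strand, and the library kit keeps the strand. Stat3 had 228, 251, 334 and 303 CPM in ApoE-/- and 202, 223, 205 and 209 CPM in WT aortas. The groups did not overlap, and ApoE-/- replicate 1 was the nearest to the WT aortas. The log2 fold change was 0.41 (SE 0.14, 95% interval 0.09 to 0.74, edgeR adjusted p = 0.282), and 0.50 without ApoE-/- replicate 1 (edgeR adjusted p = 0.0675). The spread was 4.50% of the mean in WT and 17.3% in ApoE-/- mice.

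Socs3 encodes the feedback inhibitor (ENSMUSG00000053113.3, chr11:117966079-117970047). It had 20.5, 22.2, 38.2 and 33.6 CPM in ApoE-/- and 11.9, 12.9, 7.42 and 11.9 CPM in WT aortas. All ApoE-/- aortas lay above all WT aortas, with replicates 1 and 2 nearer to them than replicates 3 and 4. The 95% interval of the log2 fold change ran from 0.78 to 1.97. DESeq2 gave the same gene a log2 fold change of 1.37 and an adjusted p of 0.000157. Leaving out ApoE-/- replicate 1 gave 1.51 with an edgeR adjusted p of 0.0171, the only one of the 8 omissions that passed the threshold, and the other omissions reached an adjusted p of up to 0.209.

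**Figure D2:**
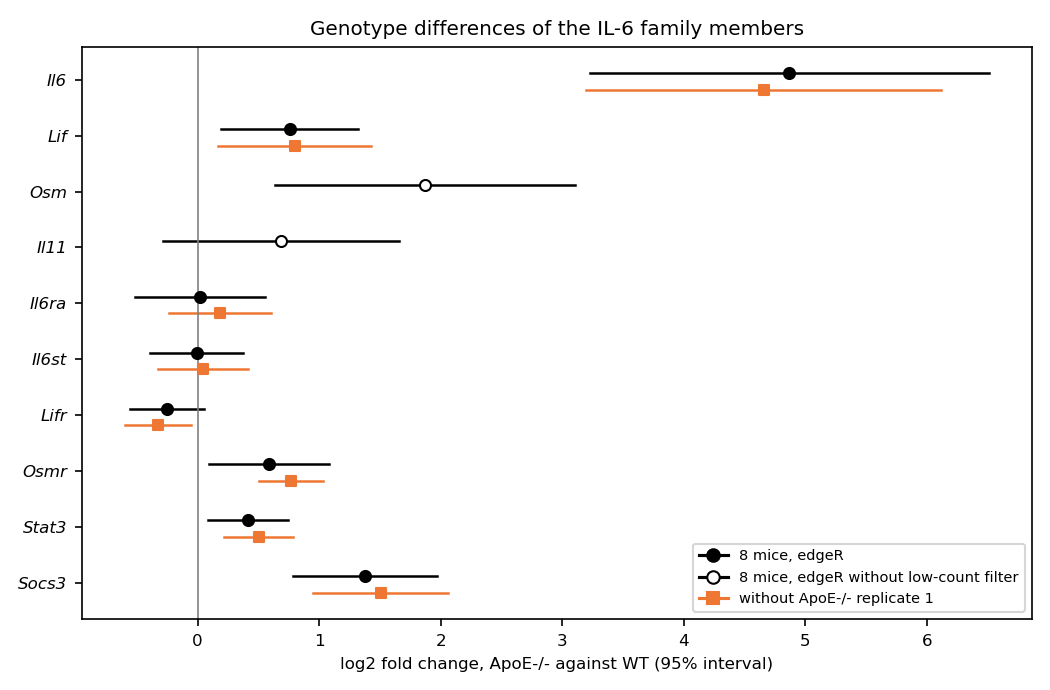
Log2 fold changes of the 10 genes, ApoE-/- against WT, with 95% intervals from edgeR. Filled circles use 8 mice, open circles 8 mice without the low-count filter (Osm and Il11), and squares leave out ApoE-/- replicate 1. The value of Osmr is 0.59 with 8 mice and 0.77 without that replicate, and only the second has an edgeR adjusted p under 0.05.

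Counted together, 8 of the 10 genes passed the low-count filter, and 1 of the 8, Il6, had an edgeR adjusted p under 0.05, where 0.464% of all genes tested did. DESeq2, whose filter differs, called Il6 and Socs3, 2 of 10, where it called 3.68% of 19606 genes. These include genes to which DESeq2 gave no adjusted p, so its share among the adjusted genes is higher. Without ApoE-/- replicate 1, edgeR called 3 of 8, Il6, Osmr and Socs3, where it called 3.91% of 15147 genes, and without each of the other 7 mice it called 0 of the family genes tested, where it called 0 to 17 of all genes. In 5 of the 10 genes all ApoE-/- aortas lay above all WT aortas, which held for 4.73% of the 19606 genes with a count, and in 0 of the 10 all lay below, against 2.94%. The median log2 fold change was 0.63 over the 10 genes and 0.05 over all genes, both without the filter. Before adjustment, 6 of the 10 had an edgeR p under 0.05 in the fit without the filter, all higher in ApoE-/- mice, where 6.33% of genes did in that direction. The 10 genes were chosen with earlier results of these data known, so these shares do not test them as a set.

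Within the ApoE-/- group the genes did not follow 1 order of mice. Osmr, Stat3 and Socs3 shared the order replicate 3, 4, 2 and 1 from the highest to the lowest, and Lif was also highest in replicate 3 and then 4, with replicates 1 and 2 alike at 2.27 CPM. Il6 ran from replicate 1 through 3 and 4 to 2, so the ApoE-/- mouse with the most Il6 had the least Socs3 of its group. Il6ra and Il6st both ran from replicate 4 through 3 and 2 to 1, and Osm was highest in replicate 4. These orders describe 4 mice and carry no test.

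Levels can be compared between genes only per length, for which RPKM, the count scaled by exon length and library size, was used. In WT aortas Il6st had the highest level, 74.7 ± 11.4 RPKM (SD, n = 4), followed by Lifr at 38.0 ± 2.73, Stat3 at 22.0 ± 0.989 and Osmr at 11.1 ± 0.963 RPKM. Il6ra at 5.45 ± 0.905 and Socs3 at 3.81 ± 0.848 RPKM came next, and the ranges of these 6 neighbours did not overlap. The ligands were lowest, with Lif at 0.337 ± 0.0909, Il11 at 0.132 ± 0.0657, Osm at 0.0726 ± 0.0519 and Il6 at 0.0630 ± 0.0603 RPKM. Il11 and Osm overlapped in their ranges, as did Osm and Il6. WT aortas thus held the receptor transcripts at higher levels than any ligand transcript.

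In ApoE-/- aortas Il6 moved from the lowest of the 10 levels to rank 7, at 1.94 ± 0.689 RPKM, above Lif at 0.571 ± 0.0751, Osm at 0.278 ± 0.125 and Il11 at 0.217 ± 0.0684 RPKM. Among the ligands, the ranges of Osm and Il11 overlapped. Socs3 reached 9.90 ± 3.00 RPKM and overlapped both Osmr at 16.7 ± 4.67 and Il6ra at 5.53 ± 1.73 RPKM, whereas in WT aortas it lay below both. Stat3 at 29.3 ± 5.08 RPKM overlapped Lifr at 31.9 ± 3.68 RPKM, and Il6st stayed the highest at 74.3 ± 7.68 RPKM.

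**Figure D3:**
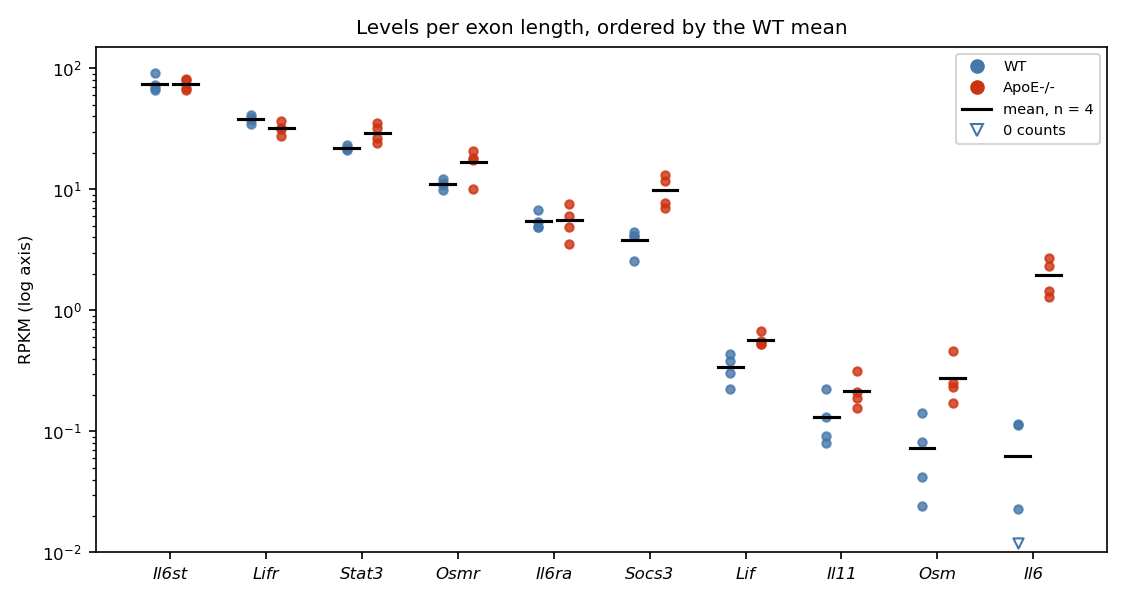
Levels per exon length of the 10 genes in RPKM on a log axis, ordered by the WT mean. Points are mice, bars are means (n = 4), and the open triangle is the WT library with 0 counts of Il6. Il6 has the lowest mean in WT aortas, 0.0630 RPKM, and 1.94 RPKM in ApoE-/- aortas.

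Ratios of scaled counts plus 2 compare genes of the same library, and 3 were compared by exact permutation tests, two-sided, over all 70 assignments, adjusted over the 3. Taken this way, Socs3 was 9.01%, 8.87%, 11.5% and 11.1% of Stat3 in ApoE-/- replicates 1 to 4, and 5.93%, 5.83%, 3.67% and 5.73% in WT replicates 1 to 4. The groups did not overlap, and replicate 3 was the lowest WT mouse. The log2 ratio was higher by 0.95 (SE 0.19) in ApoE-/- mice, with an exact p of 0.0286, the smallest that 4 against 4 allow, and an adjusted p of 0.0857. Osmr was 30.6%, 63.3%, 84.5% and 64.1% of Lifr in ApoE-/- and 32.2%, 37.0%, 30.8% and 31.6% in WT aortas. ApoE-/- replicate 1 was below all WT mice and the other 3 were above all of them. The log2 difference was 0.80 (SE 0.32, exact permutation p = 0.143, adjusted p = 0.214). Without ApoE-/- replicate 1 it was 1.09, with an adjusted exact permutation p of 0.0429. That mouse alone kept the groups from separating, so this p follows from leaving it out. Il6ra was 4.20%, 5.48%, 5.88% and 7.32% of Il6st in ApoE-/- and 5.72%, 4.14%, 6.12% and 7.19% in WT aortas, and the groups overlapped. Its log2 difference was −0.02 (SE 0.24, exact permutation p = 0.886).

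**Figure D4:**
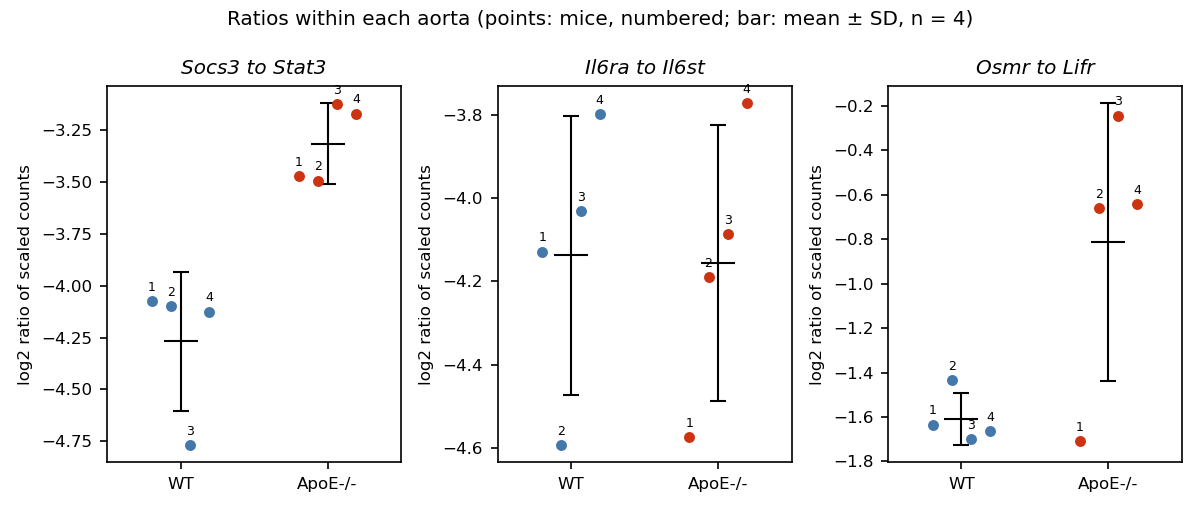
Log2 ratios of scaled counts within each aorta for Socs3 to Stat3, Il6ra to Il6st and Osmr to Lifr. Points are mice, numbered by replicate, and bars give the mean ± SD (n = 4). Socs3 to Stat3 does not overlap between genotypes, −3.32 ± 0.20 in ApoE-/- against −4.27 ± 0.33 in WT mice, and ApoE-/- replicate 1 lies next to the WT mice for Osmr to Lifr.

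The rest of the pathway was followed through 54 further genes in 6 lists, of which 50 passed the low-count filter. edgeR called 4 of the 50, all higher in ApoE-/- mice, where it called 0.371% of all genes in that direction. All 4 came from the list of 22 STAT3 target genes. The lists were chosen with earlier results of these data known, so these shares and the medians below describe the lists and test nothing. The median log2 fold change was 0.18 over the 50 genes and 0.32 over the STAT3 target genes, against 0.05 over all genes tested. Timp1, an inhibitor of matrix metalloproteinases, had 37.7, 55.2, 107.7 and 90.4 CPM in ApoE-/- and 6.61, 8.94, 6.32 and 6.46 CPM in WT aortas, and rose by a log2 value of 3.36 (SE 0.35, edgeR adjusted p = 0.0353). Serpina3n, a secreted serine protease inhibitor, had 193, 186, 254 and 402 CPM against 35.6, 46.8, 30.5 and 53.0 CPM, and rose by 2.64 (SE 0.30, edgeR adjusted p = 0.0355). Saa3, an acute-phase apolipoprotein made outside the liver, had 22.9, 4.42, 6.62 and 18.4 CPM against 0.0918, 0.0936, 0.111 and 0.335 CPM, and rose by 6.32 (SE 0.75, edgeR adjusted p = 0.0355). The WT values of Saa3 came from 2, 2, 2 and 7 read pairs, so the size of this change is imprecise. Lcn2, an iron-siderophore binding protein of neutrophils and inflamed tissue, had 22.3, 15.1, 52.5 and 39.9 CPM against 4.13, 5.34, 4.65 and 5.51 CPM, and rose by 2.72 (SE 0.39, edgeR adjusted p = 0.0381). For none of these 4 genes did the groups overlap, and each is also known to respond to other inflammatory signals. All 4 kept their call without ApoE-/- replicate 1 or replicate 2 and lost it without any of the other 6 mice. With limma-voom, Saa3 and Lcn2 also lost it (adjusted p = 0.0747 and 0.0754).

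Of the other 18 STAT3 target genes none passed the edgeR test, and before adjustment 7 genes of the whole list had a p under 0.05, all higher in ApoE-/- mice, against 7.19% of all genes tested in that direction. Bcl3, an atypical IkB protein, had 10.4 ± 1.40 CPM in ApoE-/- and 4.08 ± 1.10 CPM in WT mice (SD, n = 4), a log2 difference of 1.35 (SE 0.23) that missed the threshold (edgeR adjusted p = 0.0526). Bcl3 (chr7:19808462-19822770) lies 0.109 Mb from the deleted Apoe gene, so for it the pathway and the altered locus cannot be told apart. Il4ra, the interleukin-4 receptor chain, had 119.5 ± 18.2 CPM against 80.0 ± 7.35 CPM (log2 fold change 0.58, SE 0.13, edgeR adjusted p = 0.104). DESeq2 called both, and in the list of brakes it called Ptpn6, so that it called 7 of the 54 genes, where it called 3.68% of 19606 genes. Without ApoE-/- replicate 1, edgeR also called Bcl3 and Hif1a (adjusted p = 0.0266 and 0.0147), where it called 3.91% of 15147 genes. Bcl3, Il4ra and Hif1a were named after their values were seen.

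None of the other 5 lists had a gene past the edgeR threshold, and before adjustment 4 genes with higher and 1 with lower values in ApoE-/- mice had a p under 0.05, where 7.19% and 4.17% of all genes tested did. Among the other ligand genes, Ebi3, which encodes a subunit of IL-27, and Clcf1, which encodes a cardiotrophin-like cytokine, differed by 0.86 (SE 0.49) and 0.18 (SE 0.28) on the log2 scale. The ligand genes Il27, Cntf, Ctf2 and Il31 did not pass the filter. Among the receptors, Il31ra, the IL-31 binding chain, had 3.22 ± 0.313 CPM against 6.36 ± 2.42 CPM (log2 fold change −0.98, SE 0.32, edgeR adjusted p = 0.252), Il27ra differed by 0.43 (SE 0.20) and Il11ra1, which binds interleukin-11, by 0.18 (SE 0.22). Among the 9 transducers, the adaptor genes Grb2 and Gab1 differed by 0.39 (SE 0.13) and −0.25 (SE 0.13) and the transcription factor gene Stat5a by 0.38 (SE 0.16). Among the 7 brakes, Ptpn6, the phosphatase SHP-1 of blood cells, had 12.1 ± 5.10 CPM against 4.46 ± 1.40 CPM (log2 fold change 1.43, SE 0.34, edgeR adjusted p = 0.109). The STAT5-induced inhibitor Cish and the phosphatase Ptpn2 differed by −0.92 (SE 0.43) and 0.41 (SE 0.21), and by −0.48 without WT replicate 1 and 0.22 without ApoE-/- replicate 3. Among the 4 sheddase genes, whose products or partners release membrane receptors, Rhbdf2, Adam10 and Adam17 differed by 0.27 (SE 0.14), 0.19 (SE 0.11) and 0.20 (SE 0.13). None of these values was past the threshold, and leaving out 1 mouse moved several of them. Without ApoE-/- replicate 4, Ebi3 differed by 0.31, Clcf1 by 0.38, Il11ra1 by 0.10, Gab1 by −0.15 and Adam17 by 0.088. Without ApoE-/- replicate 3, Clcf1 differed by −0.090 and Adam10 by 0.11. Il11ra1 differed by 0.37 without ApoE-/- replicate 1 and by 0.075 without ApoE-/- replicate 2.

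**Figure D5:**
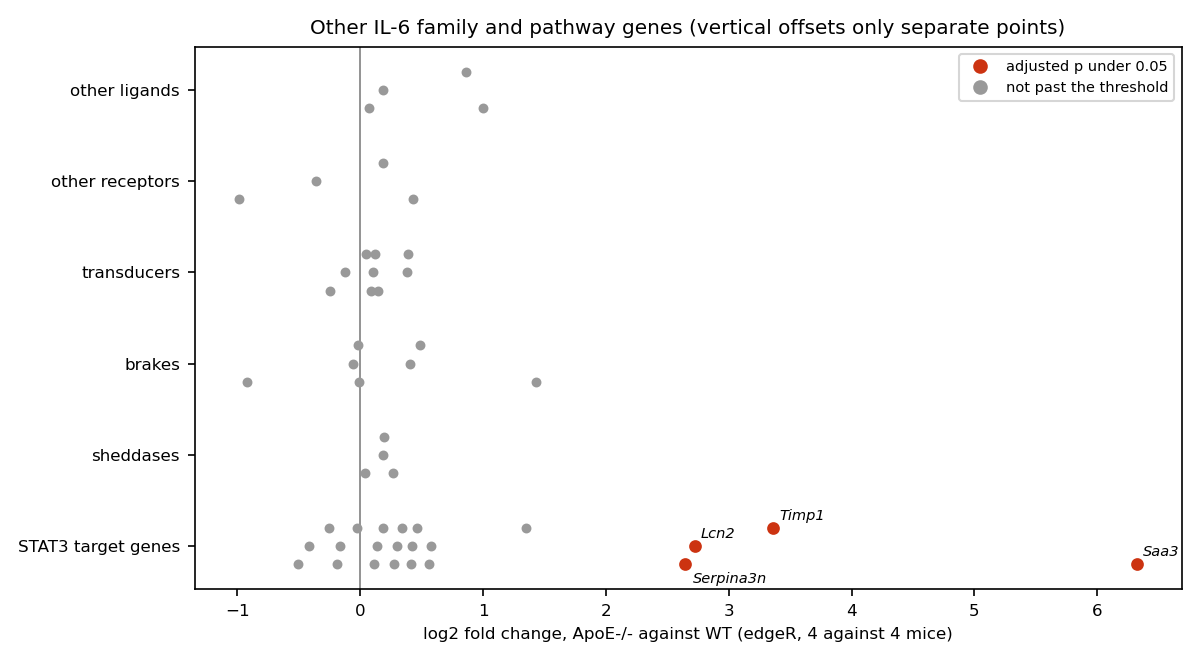
Differences of the 50 tested pathway genes, with the log2 fold change (ApoE-/- against WT) on the horizontal axis and the 6 lists on the vertical axis, where offsets only separate points. Red points have an edgeR adjusted p under 0.05. The 4 red points, Timp1, Serpina3n, Saa3 and Lcn2, are all from the list of STAT3 target genes and lie between 2.64 and 6.32. The lists were chosen with earlier results of these data known.

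Sums of the macrophage, neutrophil and cardiac muscle markers did not overlap between genotypes, and those of the other lists did. All 6 macrophage markers were higher in ApoE-/- mice and 1, Trem2, passed the edgeR test. Their sum was 201, 269.7, 307.5 and 629 CPM in ApoE-/- replicates 1 to 4 and 131 to 184 CPM in WT mice, without overlap. The neutrophil sum was 7.30 to 16.1 CPM against 1.99 to 3.12 CPM, also without overlap. Only 2 of its 5 markers had enough counts to be tested. Csf3r passed the edgeR test, and Ly6g, a defining neutrophil marker, was at 0 in 5 of the 8 libraries. The fibroblast sum was 832 to 2263 CPM against 771 to 874.5 CPM, with overlap, and 5 of 5 markers were higher and 0 past the test. The T cell sum was 3.59 to 8.42 CPM against 1.88 to 4.26 CPM, and the B cell sum, over 4 markers, 5.08 to 12.5 CPM against 2.88 to 5.17 CPM. Both sums overlapped between the groups, with 0 markers past the test. The cardiac muscle sum was lower, 19.9 to 110.4 CPM against 189 to 403 CPM, without overlap. Sums also overlapped for endothelium, 1399 to 2238 against 1991 to 2528 CPM, for adipocytes, 881 to 3358 against 1940 to 5396 CPM, for skeletal muscle, 9.23 to 22.3 against 13.3 to 24.7 CPM, and for mesothelium, 2.57 to 9.62 against 3.93 to 37.0 CPM. No marker of these lists was at 0 in all libraries. The part of these cells in the values of Il6, Socs3 and the other genes was not tested. ApoE-/- replicate 1, with the most Il6, had the lowest macrophage sum of its group, but its library also stood apart in composition. This describes 1 mouse and was not tested.

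The genes whose profiles over the 8 libraries were nearest to Il6 were Crabp2, Timp1, Tnfrsf9, Fgr and Itgax. Nearness was the root mean square difference of centred log2 CPM among 14207 genes. It was 0.946, 1.00, 1.03, 1.05 and 1.13 for these genes, against a median of 2.36 over all genes. Each of them had an edgeR adjusted p under 0.05, with log2 fold changes of 4.75, 3.36, 3.13, 2.79 and 4.44. Nearest to Socs3 were Cdca7l, Pmaip1, Cd80, Treml2 and Lat2, at 0.0723, 0.127, 0.135, 0.144 and 0.161, against a median of 0.812. None of these passed the threshold, with edgeR adjusted p-values of 0.0724 to 0.124. The lists share the genotype difference of the same 8 libraries, so they describe likeness only.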

How the data were processed

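Stranded libraries of ribodepleted RNA (TruSeq) were made from the aortas of 4 ApoE-/- and 4 WT mice and sequenced from both ends. The authors counted the read pairs on each gene and deposited these raw counts without normalization. The submitters' processing notes name TopHat2, HTSeq, GRCm38 and mm10. Versions and the annotation are not given in the sources used here. Genotype and replicate number came from the labels. Entries that name no gene (64.4% to 72.1% of pairs) were left out.

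Counts were tested with the quasi-likelihood F test of edgeR 4.0.16 in R 4.3.3 (filterByExpr, TMM, robust estimation, genotype as the only term), two-sided, with Benjamini-Hochberg adjustment over all genes tested and a threshold of 0.05. DESeq2 1.42.0, which the study's methods name, and limma 3.58.1 (voom) were alternatives, beside other scaling, other filters, non-robust estimation, a block for the replicate number, and omission of each mouse in turn. Osm and Il11 were fitted without the low-count filter. Standard errors of log2 fold changes were obtained from the F statistic. Within-aorta ratios were taken of scaled counts plus 2. RPKM used exon lengths of GENCODE M21, in which 21817 of 21859 identifiers were found and which gave gene coordinates (GRCm38). Promoters came from RefSeq (GRCm38.p6) by symbol. The steps were tested on simulated data.

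The 10 genes, the pathway lists and the marker lists were chosen with earlier results of these data known. All 10 genes are described. Of each pathway list the text names every gene past the threshold and the 3 with the smallest p, except 1 gene that is not reported here, and for Il6 and Socs3 the 5 nearest profiles among genes with a mean of at least 1 CPM. The replicates are separate mice. Counting intervals cover counting error only.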

Additional observations from a re-analysis of the deposited data

Results flagged for a closer look

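In 64 groups of 4 values checked for a mouse far from its group, 5 stood out by Dixon's criterion for the gap to the nearest mouse over the group's range, and chance gives about 1 in 20. WT replicate 3 had a log2 ratio of Socs3 to Stat3 of −4.77, against −4.13 to −4.07 in the other WT mice, a gap of 0.926 of the range. Il31ra was 2.75 CPM in WT replicate 1, against 7.30 to 7.98 CPM, a gap of 0.871, below the ApoE-/- mean of 3.22 CPM. Ptpn6 was 19.6 CPM in ApoE-/- replicate 4, against 8.44 to 10.3 CPM in the other ApoE-/- mice, a gap of 0.836, in the mouse with the highest macrophage sum. Saa3 was 0.335 CPM in WT replicate 4, against 0.0918 to 0.111 CPM, a gap of 0.922. Timp1 was 8.94 CPM in WT replicate 2, against 6.32 to 6.61 CPM, a gap of 0.888.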

How the results depend on the processing

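Of the 10 genes, edgeR called 1, DESeq2 2, the fit with the replicate number as a block 0, and fits without 1 mouse 0 to 3, the 3 without ApoE-/- replicate 1 and 0 without each other mouse. Of the pathway genes 4 were called, by DESeq2 7, limma-voom 2, the block 0, and without 1 mouse 0 to 7 (7 without ApoE-/- replicate 1, 4 without ApoE-/- replicate 2, 0 without each other mouse). Of all genes 70 were called (56 higher, 14 lower), by DESeq2 721 (477, 244), limma-voom 29 (21, 8), the block 2, and without 1 mouse 0 to 593 (593 without ApoE-/- replicate 1, 17 without ApoE-/- replicate 2, at most 2 without each other mouse). Other scalings, filters and no robust estimation gave 63 to 74 for all genes, 1 for the 10 genes and 4 for the pathway. The direction of Il6ra, 0.02 on the log2 scale, turned with limma-voom (−0.019), upper-quartile factors (−0.0067) and the block (−0.018), and ranged from −0.17 to 0.18 without 1 mouse. Il6st, at −0.01, turned with limma-voom (0.0020) and ranged from −0.059 to 0.10. Clcf1 ranged from −0.090 to 0.38. The Il6ra to Il6st ratio ranged from −0.17 to 0.12, and turned without ApoE-/- replicate 1, WT replicate 3 or WT replicate 4. The Socs3 to Stat3 ratio ranged from 0.78 to 1.02 (adjusted exact p 0.0429 without ApoE-/- replicate 1) and Osmr to Lifr from 0.61 to 1.09. The causes were not tested. With the block, Il6 had an edgeR adjusted p of 0.14. Same-numbered mice deviated with correlations of −0.448 to 0.316, 2 of 4 over 0.1. Of 8 libraries, 1 correlated best with its own number. With 4 such pairs this cannot decide whether the numbers mark a pairing or a batch. Of the 10 genes, Osm and Il11 had too few counts for the low-count filter.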
